A study of Mus musculus with 8 samples.

Results

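The enzymes that modify collagen after translation and then cross-link it were followed in the annulus fibrosus, the fibrous ring of the intervertebral disc, of WT mice and of mice lacking equilibrative nucleoside transporter 1 (ENT1-null). 10 genes were chosen by enzyme family, with earlier results of these data known, so counts over them are not independent of these data. They were prolyl 4-hydroxylase subunits P4ha1 and P4ha2, lysyl hydroxylases Plod1, Plod2 and Plod3, and lysyl oxidases Lox, Loxl1, Loxl2, Loxl3 and Loxl4. 8 of the 10 had a probe set that names them alone, out of 22180 genes with such a probe set, and all 8 were among the 15526 genes tested. Plod3 had 1 probe set and Loxl2 had 2, each shared with a second gene, so neither has a value here.

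Black 6 mice were compared at 2 months and at 6 months of age, with 2 arrays for each of the 4 groups, the WT and the ENT1-null tissue of either age. The ENT1-null allele lacks exons 2 to 4 of Slc29a1, the gene of this transporter, which carries adenosine and other nucleosides across the cell membrane; the labels restrict this deletion to no tissue and name no further allele or agent. Each array was hybridised with RNA pooled from 5 to 6 thoracic annulus fibrosus tissues. Nothing in the labels tells whether both pools of 1 group drew on different animals, so each p-value reflects only how pools vary, which may in part be technical.

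Collagen chains are hydroxylated inside the endoplasmic reticulum before they fold. Prolyl 4-hydroxylase makes the 4-hydroxyproline that keeps the triple helix stable at body temperature, and lysyl hydroxylases make the hydroxylysine that is later glycosylated or built into cross-links. Outside the cell, the copper-dependent lysyl oxidases convert lysine and hydroxylysine side chains to aldehydes that join collagen molecules, and elastin, covalently to each other, which gives the annulus its tensile strength. P4ha1, P4ha2, Plod2 and Lox are also known targets of the hypoxia-inducible factors (HIF), and the disc is a poorly vascularised tissue.

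4 promoters are shown, chosen after the results were seen. P4ha1 and P4ha2 were lower at 6 months, while Plod1 and Loxl4 did not pass there. These are not 2 contrasting sets. Loxl4 differed by −0.44 at 6 months, close to Loxl3 (−0.43), which passed, and both Plod1 and Loxl4 passed as lower with age in ENT1-null tissue. Plod2, Lox and Loxl3, also lower at 6 months, had no matched window. Whether promoter letters had a part in any difference was not tested. The windows are from RefSeq on the GRCm38.p6 build, written 5′ to 3′ on the gene's own strand. They run from 250 bases before to 50 bases after each gene's start. Windows on 1 chromosome were left out of the match, so an enzyme gene lying there could not be matched. Among the remaining windows 5 of the 10 genes were found, Plod3 being the fifth. Capitals mark ACGTG or GCGTG on either strand, the core letters of a hypoxia response element. P4ha1 lies on the plus strand at chr10:59323046-59323345, P4ha2 on the plus strand at chr11:54100674-54100973, Plod1 on the minus strand at chr4:147936727-147937026, and Loxl4 on the minus strand at chr19:42612757-42613056.
P4ha1: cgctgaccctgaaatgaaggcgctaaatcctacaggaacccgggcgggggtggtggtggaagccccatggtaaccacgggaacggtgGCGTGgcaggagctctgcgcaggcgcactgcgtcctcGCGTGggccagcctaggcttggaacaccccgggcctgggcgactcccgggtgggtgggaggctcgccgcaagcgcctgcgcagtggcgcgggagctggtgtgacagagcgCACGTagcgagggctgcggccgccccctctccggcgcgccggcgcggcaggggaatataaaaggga
P4ha2: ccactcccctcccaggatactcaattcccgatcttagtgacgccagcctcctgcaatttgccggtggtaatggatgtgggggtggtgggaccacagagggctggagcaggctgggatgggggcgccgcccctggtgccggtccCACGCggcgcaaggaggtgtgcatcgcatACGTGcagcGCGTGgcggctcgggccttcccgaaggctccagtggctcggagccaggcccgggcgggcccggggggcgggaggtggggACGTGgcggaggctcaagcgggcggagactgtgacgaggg
Plod1: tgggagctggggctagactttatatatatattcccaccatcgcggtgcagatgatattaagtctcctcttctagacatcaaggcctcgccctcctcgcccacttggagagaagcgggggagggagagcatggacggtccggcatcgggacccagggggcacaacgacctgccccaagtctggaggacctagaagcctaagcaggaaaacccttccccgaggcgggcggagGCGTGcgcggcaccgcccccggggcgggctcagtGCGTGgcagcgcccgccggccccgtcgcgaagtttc
Loxl4: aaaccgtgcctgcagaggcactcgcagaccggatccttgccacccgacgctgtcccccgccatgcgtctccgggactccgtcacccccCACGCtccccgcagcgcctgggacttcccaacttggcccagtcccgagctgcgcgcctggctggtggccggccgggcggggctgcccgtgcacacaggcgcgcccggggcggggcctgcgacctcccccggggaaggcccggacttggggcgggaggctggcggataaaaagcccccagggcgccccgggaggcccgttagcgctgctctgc
The core letters occurred at 3 places in the P4ha1 window, at 4 in that of P4ha2, at 2 in that of Plod1 and at 1 in that of Loxl4. The Plod3 window, not printed, also held 4, and Plod3 has no expression value here. In P4ha1 the matches began at −163, −126 and −16 relative to the start, and in P4ha2 at −107, −78, −69 and 11. Among 32851 promoter windows of 300 bases, which include the chromosome left out of the gene match, 43.8% held at least 1 match. Of these windows 20.6% held 2 or more and 8.93% held 3 or more. The palindrome CACGTG, whose letters contain ACGTG on both strands, was in none of the 4 windows and in 7.15% of all windows. A match describes these letters and is no evidence of binding.

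The values are log2 RMA levels, so a difference of 1 is a doubling, and no probe set's level is compared with that of another gene. A gene was called when its p, adjusted by the Benjamini-Hochberg method over the 15526 genes in the limma fit, was below 0.05. Slc29a1, which checks the genotype labels, read 10.71 and 10.69 in 2-month WT tissue and 9.21 and 9.36 in 2-month ENT1-null tissue, then 10.34 and 10.43 in 6-month WT and 8.90 and 8.80 in 6-month ENT1-null tissue. It was lower in ENT1-null tissue by 1.41 ± 0.09 (SE) on the log2 scale at 2 months (limma adjusted p = 0.00724) and by 1.53 ± 0.09 at 6 months (limma adjusted p = 0.000354), and all 4 ENT1-null arrays were below all 4 WT arrays. Where its probes lie relative to the deleted exons was not given in the sources used here. At 2 months this call missed the threshold when WT replicate 1 was left out (limma adjusted p = 0.150), and likewise for ENT1-null replicate 1 (0.0615) or ENT1-null replicate 2 (0.0645) of that age; fitted on the 2-month arrays alone it also missed (0.0598).

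Markers of other cells moved with genotype, and their levels are given here because every result below shares them. The mean level of 8 chondrocyte markers, such as Acan and Col2a1 of cartilage matrix, was 11.46 to 11.48 in 2-month WT, 11.18 to 11.37 in 2-month ENT1-null, 11.02 to 11.11 in 6-month WT and 10.22 to 10.28 in 6-month ENT1-null tissue, so these markers of the labelled tissue were lowest on the 6-month ENT1-null arrays. All 8 were among the genes tested. At 6 months 7 of the 8 chondrocyte markers and 5 of 8 markers of fibrous annulus and tendon were lower in ENT1-null tissue, with none higher. The bone marrow lists went the other way: 12 of 12 neutrophil, 5 of 5 erythroid, 7 of 7 macrophage, 6 of 6 osteoclast and 4 of 6 B cell markers that were tested were higher. The mean level of the 12 neutrophil markers was 8.76 to 10.30 in 6-month WT and 11.83 to 11.89 in 6-month ENT1-null tissue, against 8.97 to 10.19 and 10.92 to 11.22 at 2 months. Skeletal muscle markers were lower in 9 of 10, with array means of 10.13 to 10.27 in 6-month WT and 7.201 to 8.34 in 6-month ENT1-null tissue. At 2 months all 10 muscle differences were above 0 (median 1.06) and none passed, with array means of 7.77 to 9.10 in WT and 8.68 to 10.29 in ENT1-null tissue. Of 6 osteoblast markers 2 were higher and 2 lower, of 8 endothelial markers 2 were higher, and none of 6 adipocyte markers passed. In such bulk tissue fewer cells of a type and less RNA per cell cannot be told apart, and the part of these shifts in the results below was not tested.

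**Figure D1:**
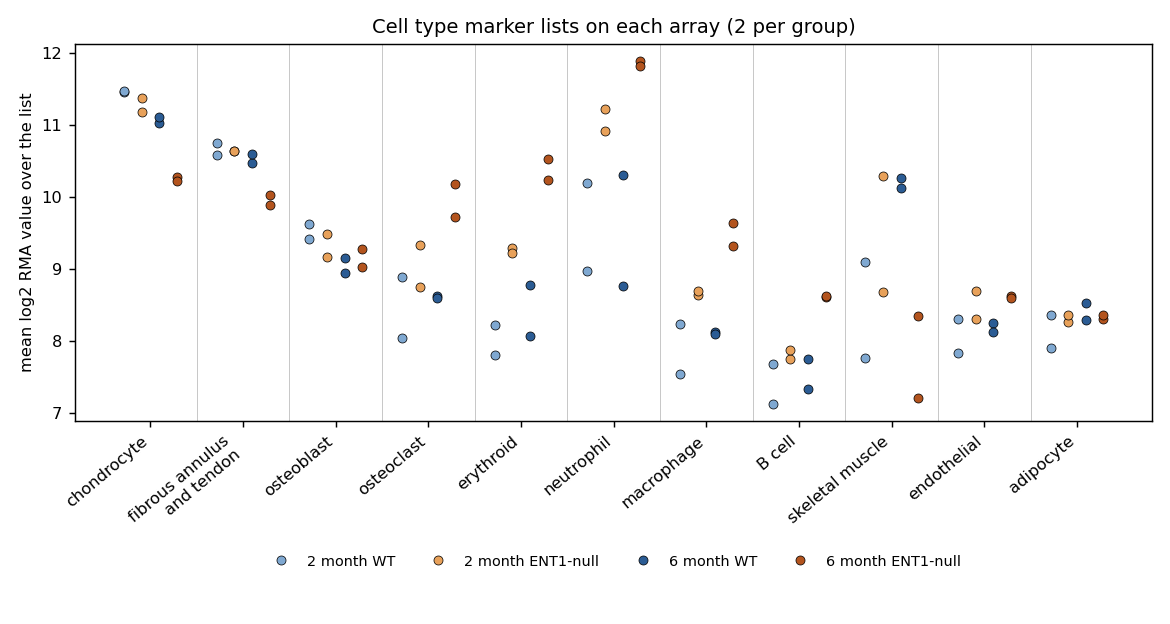
Mean log2 RMA level of each cell type marker list (y axis) on each of the 8 arrays, coloured by group, with 2 arrays per group. The 6-month ENT1-null arrays are lowest for chondrocyte markers (10.22 to 10.28) and highest for neutrophil markers (11.83 to 11.89).

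At 6 months 5 of the 8 measured enzymes were lower in ENT1-null annulus: P4ha1, P4ha2, Plod2, Lox and Loxl3. None was higher at the adjusted threshold, and Plod1, Loxl1 and Loxl4 did not pass. Lower calls made up 17.6% of all 15526 genes in this comparison, and calls in either direction 38.8%. For each of the 8 enzymes both ENT1-null arrays lay on one side of both WT arrays, below them for 7 and above them for Loxl1; 72.3% of all genes were likewise apart, 36.8% with ENT1-null lower and 35.6% with it higher. The median difference of the 8 enzymes was −0.49, against −0.03 over all genes.

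Both prolyl 4-hydroxylase genes were lower in ENT1-null tissue at 6 months. P4ha1 encodes a catalytic alpha subunit of the enzyme and is its main form in most tissues. It read 11.26 and 11.19 in 2-month WT, 11.13 and 10.97 in 2-month ENT1-null, 11.06 and 11.25 in 6-month WT and 10.44 and 10.20 in 6-month ENT1-null tissue. The 6-month ENT1-null arrays were the lowest of the 8, and the other 3 groups lay close together, with the 2 WT ages overlapping. At 6 months P4ha1 was lower by 0.84 ± 0.12 (SE) on the log2 scale, 1.79-fold (95% interval of the difference −1.11 to −0.57, limma adjusted p = 0.00134).

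P4ha2 encodes the alternative alpha subunit, which is prominent in chondrocytes and other skeletal cells. It read 9.81 and 9.83 in 2-month WT and 9.43 and 9.47 in 2-month ENT1-null tissue, then 9.64 and 9.66 in 6-month WT and 8.57 and 8.07 in 6-month ENT1-null tissue. The 2 arrays of each of the first 3 groups lay within 0.0341 of each other, and the 6-month ENT1-null arrays were lowest and furthest apart. At 6 months P4ha2 was lower by 1.33 ± 0.15 (SE) on the log2 scale, 2.52-fold (95% interval −1.68 to −0.98, limma adjusted p = 0.000645).

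Among the lysyl hydroxylases, Plod2 and Plod1 stood differently to genotype and age. Plod2 hydroxylates lysines of the collagen telopeptides, the ends outside the triple helix from which hydroxylysine-derived cross-links form. It read 12.08 and 11.90 in 2-month WT, 11.72 and 11.44 in 2-month ENT1-null, 11.83 and 11.89 in 6-month WT and 10.65 and 10.51 in 6-month ENT1-null tissue. The 2 genotypes were apart at both ages, with the 6-month ENT1-null arrays well below the others. Plod2 was lower at 6 months by 1.27 ± 0.12 (SE) on the log2 scale, 2.42-fold (95% interval −1.55 to −0.997, limma adjusted p = 0.000439).

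Plod1 hydroxylates lysines within the triple helix. It read 9.13 and 9.16 in 2-month WT, 8.75 and 9.10 in 2-month ENT1-null, 8.70 and 8.62 in 6-month WT and 8.34 and 8.37 in 6-month ENT1-null tissue. Its order followed age first, with both 6-month groups below both 2-month groups, and then genotype within each age. The 6-month genotype difference of −0.31 ± 0.12 (SE) did not pass (95% interval −0.58 to −0.03, limma adjusted p = 0.0743); it passed without 2-month ENT1-null replicate 1 or without 2-month ENT1-null replicate 2 (0.0256 and 0.0258). The values of Plod3, which also glycosylates hydroxylysine, were not analysed here.

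Among the lysyl oxidases, Lox and Loxl3 were lower at 6 months, and Loxl1 and Loxl4 did not pass. The threshold does not divide them by size of difference. Loxl3 and Loxl4 had nearly equal differences (−0.43 and −0.44), with a larger SE for Loxl4 (0.18 against 0.09), while Loxl1 was above 0. Lox, the founding family member that acts on fibrillar collagen and elastin, read 10.65 and 10.57 in 2-month WT, 10.33 and 10.37 in 2-month ENT1-null, 10.27 and 10.35 in 6-month WT and 9.91 and 9.61 in 6-month ENT1-null tissue. The 6-month ENT1-null arrays were the lowest, and the 2-month ENT1-null arrays overlapped the 6-month WT arrays. Lox was lower at 6 months by 0.54 ± 0.11 (SE) on the log2 scale, 1.46-fold (95% interval −0.80 to −0.29, limma adjusted p = 0.00692).

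Loxl3, an oxidase with scavenger receptor domains that is needed for normal palate and spine development in mice, read 10.46 and 10.51 in 2-month WT, 10.39 and 10.51 in 2-month ENT1-null, 10.01 and 10.02 in 6-month WT and 9.64 and 9.51 in 6-month ENT1-null tissue. The 2 genotypes overlapped at 2 months and were apart at 6 months. Loxl3 was lower at 6 months by 0.43 ± 0.09 (SE) on the log2 scale, 1.35-fold (95% interval −0.64 to −0.23, limma adjusted p = 0.00636).

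Loxl4, of the same scavenger receptor subgroup, read 8.56 and 8.69 in 2-month WT, 8.36 and 8.77 in 2-month ENT1-null, 8.16 and 8.05 in 6-month WT and 7.90 and 7.45 in 6-month ENT1-null tissue. As for Loxl3, the genotypes overlapped at 2 months and were apart at 6 months, here with a wider spread between ENT1-null arrays. Its 6-month difference of −0.44 ± 0.18 (SE) did not pass (95% interval −0.85 to −0.02, limma adjusted p = 0.0877). It was −0.66 without ENT1-null replicate 1 of that age (limma adjusted p = 0.0340) and −0.21 without ENT1-null replicate 2 (0.393).

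Loxl1, which is required for elastic fibre upkeep, was the enzyme with higher values in ENT1-null tissue. It read 7.83 and 8.52 in 2-month WT, 8.31 and 8.71 in 2-month ENT1-null, 8.08 and 8.21 in 6-month WT and 8.58 and 8.67 in 6-month ENT1-null tissue. The genotypes overlapped at 2 months, where the WT arrays differed by 0.68, and were apart at 6 months. The 6-month difference of 0.48 ± 0.22 (SE) did not pass (95% interval −0.03 to 0.99, limma adjusted p = 0.125); it passed without 2-month WT replicate 1 or without 2-month WT replicate 2 (0.0383 and 0.0384).

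**Figure D2:**
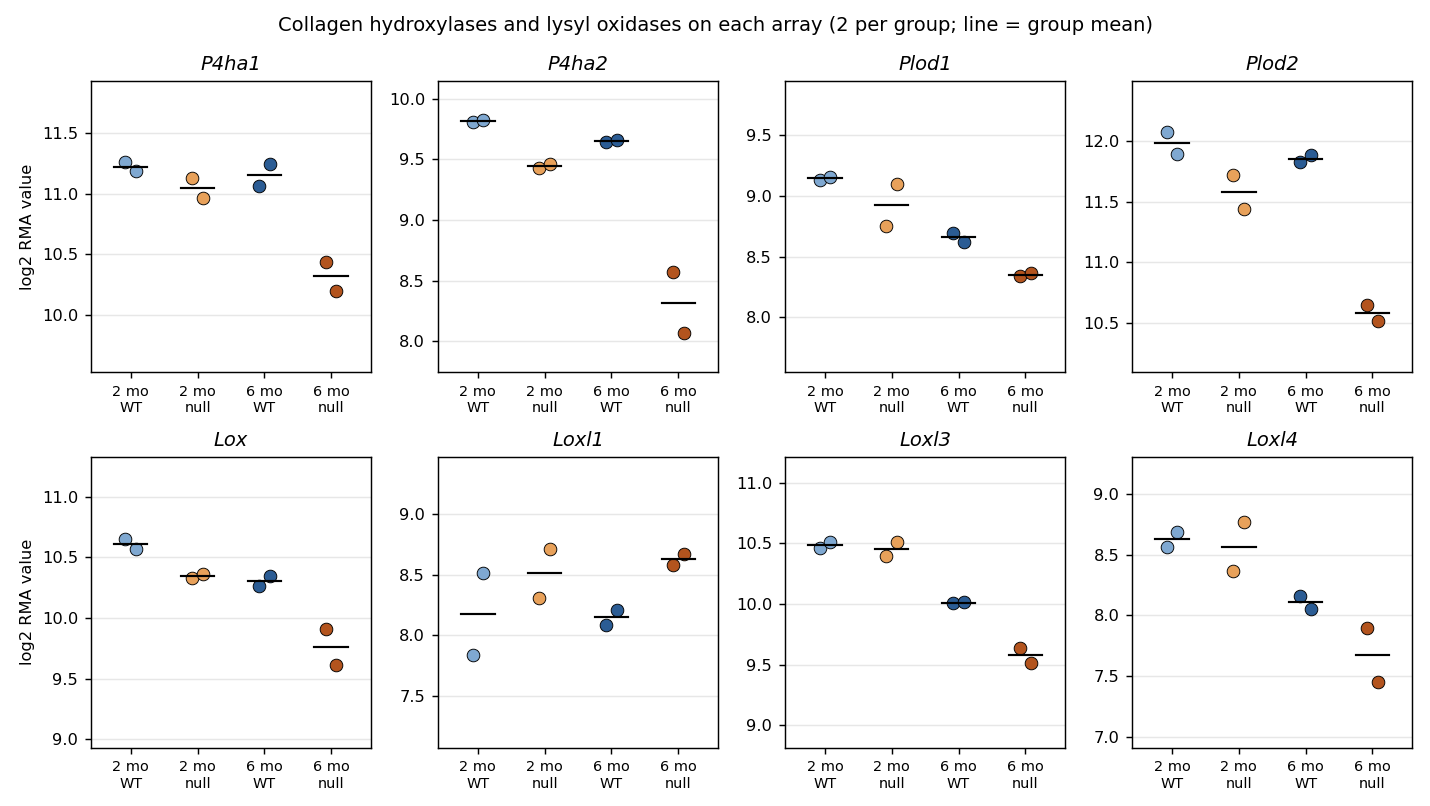
Log2 RMA level (y axis) of the 8 measured enzymes on each array, with 2 arrays per group (points) and the group mean (line); every panel spans the same number of log2 units around its own levels. The 6-month ENT1-null arrays are the lowest of the 8 for every enzyme shown except Loxl1.

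At 2 months none of the 8 enzymes passed the limma test, where 0.683% of all genes did (106 of 15526). 3 of the 8 had an unadjusted p below 0.05 (Plod2, P4ha2 and Lox), as had 3008 of all genes. The difference was −0.41 ± 0.12 (SE) for Plod2 (95% interval −0.69 to −0.13, limma adjusted p = 0.123), −0.37 ± 0.15 for P4ha2 (−0.72 to −0.02, adjusted p = 0.233) and −0.26 ± 0.11 for Lox (−0.52 to −0.00212, adjusted p = 0.255). 7 of the 8 differences were below 0, with a median of −0.20 against −0.04 over all genes, and for 5 enzymes the ENT1-null arrays were both below the WT arrays, as for 33.2% of all genes. The remaining differences were −0.22 ± 0.12 for Plod1, −0.17 ± 0.12 for P4ha1, −0.03 ± 0.09 for Loxl3, −0.06 ± 0.18 for Loxl4 and 0.33 ± 0.22 for Loxl1. When 1 array of that age was left out, the values ranged from −0.39 to −0.0463 for Plod1, from −0.26 to −0.0946 for P4ha1 and from −0.55 to −0.27 for Plod2, the extremes coming from the ENT1-null arrays. Beside these values, all 12 neutrophil markers were above 0 at 2 months with a median of 1.499, and none of them passed. All 5 erythroid markers were above 0 (median 1.32), of which 1 passed, Klf1, a transcription factor of red cell precursors (1.32 ± 0.20, limma adjusted p = 0.0443). Of 6 osteoblast markers 1 was lower, the alkaline phosphatase gene Alpl (−0.79 ± 0.10, limma adjusted p = 0.0427). Klf1 and Alpl are named after their values were seen. Neither call held when only the 2-month arrays were fitted, where 0 genes passed.

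The genotype difference was larger at 6 than at 2 months for Plod2 and P4ha2 by the test of that change itself, the interaction of genotype and age. It went further down by 0.86 ± 0.17 (SE) for Plod2 (95% interval −1.26 to −0.47, limma adjusted p = 0.0420) and by 0.96 ± 0.21 for P4ha2 (−1.45 to −0.47, limma adjusted p = 0.0494). P4ha1 had −0.66 ± 0.16 (limma adjusted p = 0.0589) and Loxl3 −0.40 ± 0.12 (limma adjusted p = 0.0899), neither past the threshold. Lox (−0.28 ± 0.16), Loxl4 (−0.38 ± 0.25), Plod1 (−0.09 ± 0.17) and Loxl1 (0.14 ± 0.31) also did not pass. Calls made up 4.45% of all genes, 1.89% on the lower side, with 398 genes above 0 and 293 below; after a second quantile normalisation these were 299 and 407. Both calls were lost without any 1 of the 8 arrays (adjusted p of 0.0570 to 0.139 for Plod2 and 0.0558 to 0.151 for P4ha2), settings in which the count over all genes fell from 691 to between 0 and 319, and both were lost with no filter on low genes, where 11 genes passed. In the same test 4 of 8 chondrocyte markers were lower (median −0.66), and the 10 muscle markers had a median of −3.44, of which 1 passed (Myot).

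**Figure D3:**
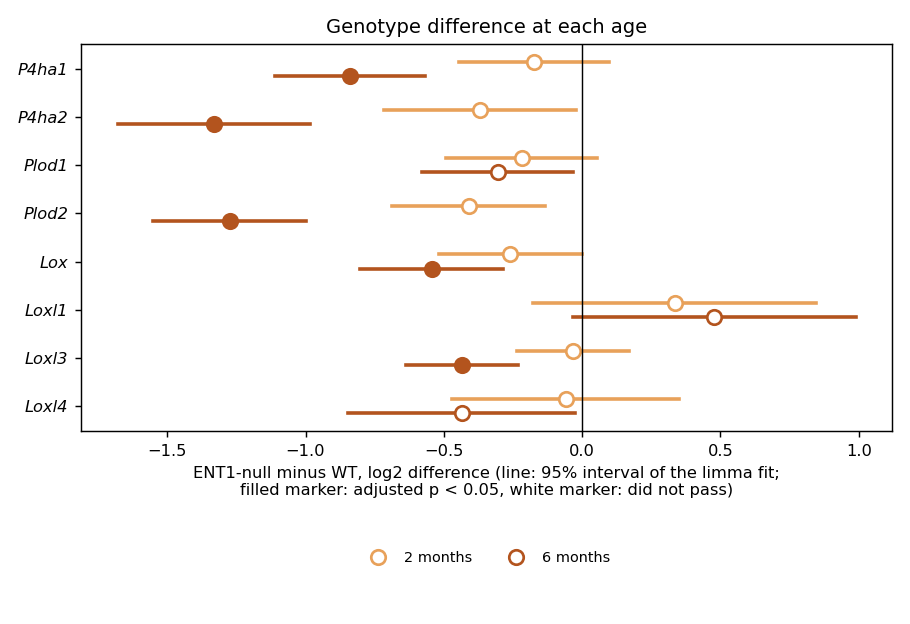
Difference between ENT1-null and WT tissue in log2 RMA level (x axis) for the 8 enzymes at 2 months (light) and 6 months (dark), with the 95% interval of the limma fit; filled markers passed at an adjusted p below 0.05. The intervals of the 2 ages do not overlap for P4ha1, P4ha2 and Plod2, and 5 markers are filled, all at 6 months.

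Age was compared within each genotype. From 2 to 6 months in WT tissue none of the 8 passed the limma test, and neither did any of the 15526 genes (0%); 4 of the 8 (Loxl3, Plod1, Loxl4 and Lox) and 2067 of all genes had an unadjusted p below 0.05. All 8 WT differences were below 0, and for 6 of them the 6-month arrays were both below the 2-month arrays, as for 35.9% of all genes. The WT difference was −0.48 ± 0.09 (SE) for Loxl3 (limma adjusted p = 0.193), −0.49 ± 0.12 for Plod1 (0.227), −0.52 ± 0.18 for Loxl4 (0.314) and −0.30 ± 0.11 for Lox (0.326). It was −0.13 ± 0.12 for Plod2, −0.17 ± 0.15 for P4ha2, −0.07 ± 0.12 for P4ha1 and −0.03 ± 0.22 for Loxl1. The 10 muscle markers were all above 0 with age in WT tissue (median 1.65) and the 8 chondrocyte markers all below (median −0.32), and none of either list passed.

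In ENT1-null tissue 7 of the 8 enzymes fell from 2 to 6 months, a comparison that shares the 6-month ENT1-null arrays with the 6-month genotype comparison; lower calls made up 10.2% of all genes and calls in either direction 22.2%. P4ha2 fell by 1.13 ± 0.15 (SE) on the log2 scale (limma adjusted p = 0.00356) and Plod2 by 0.996 ± 0.12 (0.00293). Loxl4 fell by 0.89 ± 0.18 (0.0118), Loxl3 by 0.88 ± 0.09 (0.00236), P4ha1 by 0.73 ± 0.12 (0.00584), Lox by 0.59 ± 0.11 (0.0101) and Plod1 by 0.57 ± 0.12 (0.0132). Loxl1 had 0.12 ± 0.22 and did not pass (limma adjusted p = 0.761). In this comparison 8 of 8 chondrocyte markers were lower (median −0.95), 4 of 5 erythroid and 4 of 7 macrophage markers were higher, and the 10 muscle markers were all below 0 (median −1.70), of which 1 passed (Myot). The Loxl4 call was lost without 2-month ENT1-null replicate 2 (−0.69) or 6-month ENT1-null replicate 2 (−0.67), and that of Plod1 without 6-month ENT1-null replicate 1 (−0.56) or replicate 2 (−0.59).

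Over the 8 arrays the 2 prolyl 4-hydroxylases and Plod2 had similar profiles. Pearson's r was 0.98 for Plod2 and P4ha1, 0.98 for P4ha1 and P4ha2 and 0.97 for Plod2 and P4ha2. Loxl3 followed Loxl4 (0.96) and Plod1 (0.95). Loxl1 was negatively correlated with each of the other 7, from −0.71 with Plod2 to −0.20 with Loxl4. These correlations describe 8 arrays that share 4 group means.

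Among 13827 genes with a settled name, those with profiles most like Plod2 by Pearson's r over the 8 arrays were Psd3, Abi3bp and Glt8d1 (each over 0.99). For P4ha1 they were Itpr2, Mbnl2 and Cox16, and for Lox they were Epb41l1, Arfip1 and Carmn. Profiles with r above 0.95 were common: 609 genes reached it with Plod2, 568 with P4ha1 and 443 with Lox. No such search was possible for Loxl2.

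The genes the enzymes work with were read from lists that also covered HIF targets and genes responsive to transforming growth factor beta. Like the enzymes, the lists were chosen with earlier results of these data known. The 2 genes named first for each had its largest limma statistic in either direction at 6 months, so they are extremes by choice. Together the 7 lists held 89 tested genes. At 6 months 42 of them were lower in ENT1-null tissue, 10 were higher and 37 did not pass, beside 17.6% lower and 21.2% higher over all genes. At 2 months none of the 89 passed the limma test and 23 had an unadjusted p below 0.05, as had 3008 of all 15526 genes. The chondrocyte and marrow marker lists moved at the same age, as given above.

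Of 16 other genes of collagen processing in the endoplasmic reticulum, 9 were lower at 6 months, none was higher and 7 did not pass, with a median difference of −0.36. Colgalt2, which adds galactose to hydroxylysine, was lower by 1.22 ± 0.12 (SE) on the log2 scale (limma adjusted p = 0.000472). P3h4, a partner of lysyl hydroxylase 1 in helical lysine hydroxylation, was lower by 0.73 ± 0.09 (limma adjusted p = 0.000745). P4hb, the protein disulfide isomerase that forms the beta subunit of prolyl 4-hydroxylase, was lower by 0.30 ± 0.10 (limma adjusted p = 0.0401). The call for P4hb was lost without either 2-month WT array, without either 6-month WT array or without 6-month ENT1-null replicate 2 (adjusted p of 0.0623 to 0.171). P4ha3, the third alpha subunit, had 0.09 ± 0.34 (limma adjusted p = 0.858), and Serpinh1, the collagen chaperone HSP47, had −0.20 ± 0.16 (limma adjusted p = 0.359).

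Of 12 genes of procollagen export and propeptide trimming, 5 were lower, none was higher and 7 did not pass, with a median of −0.19. Pcolce2, an enhancer of the procollagen C-proteinase, was lower by 1.04 ± 0.08 (SE) on the log2 scale (limma adjusted p = 0.000383). Sec24d, a coat protein of the vesicles that carry procollagen out of the endoplasmic reticulum, was lower by 0.69 ± 0.09 (limma adjusted p = 0.000883).

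The substrates did not move in 1 direction. Of 17 collagen chains 7 were lower, 2 were higher and 8 did not pass, with a median of −0.34; 5 passed in place of 9 when the second 6-month array of either genotype was left out. Col9a1, a chain of cartilage collagen IX, was lower by 1.17 ± 0.16 (SE) on the log2 scale (limma adjusted p = 0.00136), and Col6a3, a chain of pericellular collagen VI, by 0.70 ± 0.13 (limma adjusted p = 0.00445). Both chains of collagen I were higher, Col1a1 by 1.35 ± 0.33 (limma adjusted p = 0.0143) and Col1a2 by 1.19 ± 0.25 (limma adjusted p = 0.00775), whereas Col2a1, of cartilage collagen II, was lower by 0.82 ± 0.17 (limma adjusted p = 0.00841). These 3 were singled out after their values were seen. At 6 months the Col1a1 call was lost when WT replicate 2 (1.24) or ENT1-null replicate 1 (1.23) was left out, and that of Col2a1 when replicate 2 of WT (−0.76) or of ENT1-null tissue (−0.69) was.

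Of 10 genes for elastin and for proteins that bind lysyl oxidases or their substrates, 4 were lower, 2 were higher and 4 did not pass, with a median of −0.27. Fbln1 and Fbln2, fibulins of the elastic fibre and basement membrane, were lower by 1.17 ± 0.09 (SE) and 0.98 ± 0.09 on the log2 scale (limma adjusted p of 0.000383 and 0.000427). Fbln5, a fibulin that binds Loxl1 and elastin, was higher by 1.16 ± 0.23 (limma adjusted p = 0.00676); it was singled out after its value was seen.

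Copper supply, on which the oxidases depend, was measured through 8 genes, of which 3 were higher, 2 were lower and 3 did not pass, with a median of 0.23; 3 passed in place of 5 when the first 6-month array of either genotype was left out, or with the filter set at the 50th percentile. Slc31a2, a copper transporter of intracellular vesicles, was higher by 0.59 ± 0.09 (SE) on the log2 scale (limma adjusted p = 0.00210). Sod3, the secreted copper and zinc superoxide dismutase, was lower by 1.096 ± 0.10 (limma adjusted p = 0.000439). It is an enzyme that uses copper, so the list does not hold supply genes alone. The other lower gene was Atp7a, named after the values were seen. Copper itself was not measured.

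Of 17 HIF targets other than the enzymes themselves, 10 were lower at 6 months, 2 were higher and 5 did not pass, with a median of −0.58. Without single arrays 8 to 12 of the 17 passed. Pdk1, the kinase that limits pyruvate entry into mitochondria, was lower by 0.71 ± 0.09 (SE) on the log2 scale (limma adjusted p = 0.00112), and Adm, the gene of the vasodilator peptide adrenomedullin, by 1.17 ± 0.17 (limma adjusted p = 0.00159). Bnip3, a mitophagy receptor singled out after its value was seen, was lower by 1.35 ± 0.22 (limma adjusted p = 0.00284). The list was mixed, with 13 differences below 0 and 4 above. The largest rise was 1.07, for Pfkfb4, which was also singled out after its value was seen. The mean level of the 17 genes was 9.25 to 9.29 in 2-month WT, 9.14 to 9.20 in 2-month ENT1-null, 9.18 to 9.37 in 6-month WT and 8.71 to 8.96 in 6-month ENT1-null tissue, so the 6-month ENT1-null arrays lay below the other 6.

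Of 9 genes responsive to transforming growth factor beta, 5 were lower, 1 was higher and 3 did not pass, with a median of −0.35; 3 passed in place of 6 without 6-month WT replicate 1 and also without 6-month WT replicate 2. Ccn2, the connective tissue growth factor, was lower by 0.98 ± 0.11 (SE) on the log2 scale (limma adjusted p = 0.000616). Skil, a feedback inhibitor of the pathway, was lower by 0.66 ± 0.12 (limma adjusted p = 0.00381).

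**Figure D4:**
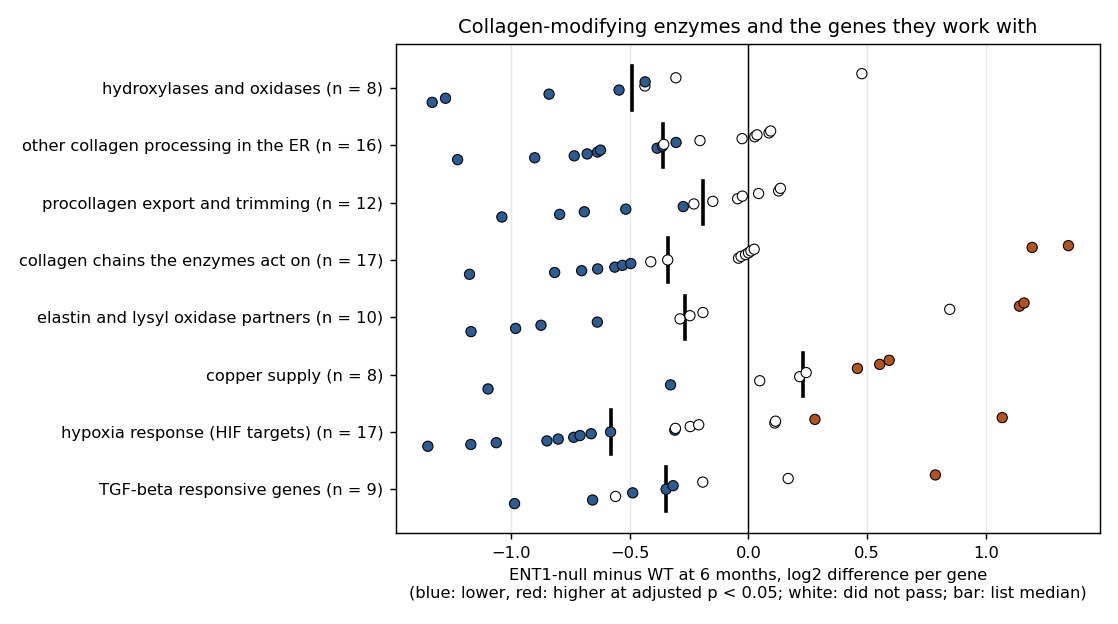
Difference between ENT1-null and WT tissue at 6 months in log2 RMA level (x axis) for each gene of the 8 enzymes and of the 7 lists (points), with the list median (bar); blue and red points were lower and higher at an adjusted p below 0.05 and white points did not pass. The median is below 0 for the enzymes and for every list except copper supply (0.23).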

How the data were processed

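Total RNA was extracted with Trizol and hybridised as biotin-labelled cRNA, per the labels' protocols. The authors deposited log2 values summarised with RMA, per the submitters' processing notes; array design, genome build and RMA version were not given in the sources used here. Array medians were 6.765 to 6.819 and the correlation of arrays within a group was 0.9828 to 0.9837; with 2 arrays per group, their number limits the precision. Of 41345 probe sets, 23521 named 1 gene, 1814 several and 16010 none; 23328 matched RefSeq by gene ID. Each of 22180 genes took its single-gene probe set with the highest mean (1082 had more than 1), and those whose mean lay under the 30th percentile (6.206) were left out.

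For the 15526 remaining genes limma 3.58.1 (R 4.3.3) was used (4 group means, empirical Bayes, Benjamini-Hochberg), tested on simulated data. 5 comparisons were made: genotype at each age, its interaction with age, and age within each genotype. Named genes are the 10 enzymes, Slc29a1, P4ha3, P4hb and Serpinh1. To these come the 2 genes of each pathway list with the largest moderated statistic at 6 months. For P4ha1, Plod2 and Lox the 3 genes of most similar profile are also named. Col1a1, Col1a2, Col2a1, Fbln5, Bnip3, Pfkfb4, Atp7a, Klf1, Alpl and Myot were named after their values were seen. Cell type lists are otherwise given by counts and levels. Enzymes and lists were chosen with earlier results of these data known. Alternatives covered the filter, normalisation, choice of probe set, variance model, threshold, samples fitted, replicate numbers as a block, and leaving out each array.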

Additional observations from a re-analysis of the deposited data

Results flagged for a closer look

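The genotype difference differed between the 2 ages by its own test for 2 enzymes. The ENT1-null minus WT difference of Plod2 changed by −0.86 on the log2 scale from 2 to 6 months. That of P4ha2 changed by −0.96. Both changes were tested as the interaction of genotype and age in the limma fit.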

How the results depend on the processing

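At 6 months P4ha1, P4ha2, Plod2, Lox and Loxl3 remained lower at the threshold in every fit with an adjusted p below 0.05, so the count of 5 stayed between 5 and 7 there (5 to 6 without single arrays); it was 3 where an unadjusted p below 0.05 and a 1.5-fold change were asked for. The interaction count of 2 became 0 with no filter, 1 with all probe sets, 4 at an adjusted p below 0.1 and 3 with the filter at the 50th percentile, with trend and robust variances, or with an unadjusted p and a 1.5-fold change; without single arrays it ranged from 0 to 0. No label pairs arrays by replicate number. Correlations of same-numbered deviations ranged from −0.395, between the 2 ages of WT, to 0.415, between the 2 genotypes at 2 months. Whether arrays were paired within 2 months was not tested on its own. With the replicate numbers as 1 block over both ages the interaction count was 1, and the 6-month count stayed at 5. Among all genes 353 in place of 691 were then called in the interaction. Fitting only the groups compared cannot apply to the interaction, which uses all 4. In ENT1-null tissue the age count of 7 was 5 to 7 without single arrays. Over all genes the 2-month genotype count of 106 was 29 with no filter, 35 with all probe sets, 161 with arrays centred on their medians, 259 with trend and robust variances, 1 with the block, 0 with only the groups compared and 0 to 358 without single arrays. The interaction count of 691 was 11 with no filter and 1102 with trend and robust variances. The 6-month count of 6022 was lowest at 3693, without WT replicate 2 of that age. The age count in ENT1-null tissue, 3442, was 1525 without replicate 1 at 2 months and 1519 without replicate 2 at 6 months.

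Directions turned only in fits that left out 1 array, and only for differences that had not passed. At 2 months the ranges over those fits were −0.00699 to 0.67 for Loxl1, −0.0928 to 0.0273 for Loxl3 and −0.26 to 0.14 for Loxl4. The interaction ranged from −0.20 to 0.48 for Loxl1 and from −0.26 to 0.0841 for Plod1. P4ha3 ranged from −0.38 to 0.55 at 6 months. With age in WT tissue Loxl1 ranged from −0.37 to 0.31 and P4ha1 from −0.16 to 0.0256. With age in ENT1-null tissue Loxl1 ranged from −0.0839 to 0.31, P4ha3 from −0.55 to 0.28, Col1a1 from −0.07845 to 0.73 and Col1a2 from −0.0654 to 0.48. Other differences that had not passed kept their sign over wide ranges, such as the interaction of Lox (−0.43 to −0.13) and of Loxl4 (−0.60 to −0.15). The cause of these changes was not tested, and 2 arrays per group leave each value resting on few measurements.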

Other observations

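From 2 to 6 months within ENT1-null tissue 43 of the 89 genes in the 7 pathway lists fell, 3 rose and 43 did not pass, beside 10.2% of all genes lower and 22.2% called in either direction. Of the 17 collagen chains 9 fell with age there and none rose, with a median of −0.65, while of the 16 other genes of collagen processing in the endoplasmic reticulum 10 fell and none rose, with a median of −0.54. Copper supply had 2 of 8 genes higher and 2 lower, with a median of 0.12, and 10 of 17 HIF targets and 5 of 9 genes responsive to transforming growth factor beta did not pass. Over the fits that leave out 1 array, calls numbered 2 to 3 for copper supply (4 with all arrays), 3 to 7 for HIF targets (7) and 2 to 3 for the growth factor list (4); the lowest counts came from leaving out an ENT1-null array. In the same comparison 8 of 8 chondrocyte markers were lower, and 4 of 5 erythroid and 4 of 7 macrophage markers were higher; the part of these shifts was not tested. Col9a1 fell by 1.76 ± 0.16 (SE) on the log2 scale (limma adjusted p = 0.00230) and Col2a1 by 1.32 ± 0.17 (limma adjusted p = 0.00352). The chains of collagen I did not pass this test, with 0.33 ± 0.33 for Col1a1 (limma adjusted p = 0.528) and 0.21 ± 0.25 for Col1a2 (limma adjusted p = 0.614). Serpinh1, the collagen chaperone, fell by 0.60 ± 0.16 (limma adjusted p = 0.0365), a call lost when any 1 array other than those of 2-month WT tissue was left out, with values of −0.76 to −0.45. This comparison shares the 6-month ENT1-null arrays with the genotype comparison at that age.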
